A study of Mus musculus with 2 samples.

Results

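The HoxD cluster of the mouse is a row of homeobox genes on chromosome 2. Its 8 genes with an identifier in the deposited tables are Hoxd1, Hoxd3, Hoxd8, Hoxd9, Hoxd10, Hoxd11, Hoxd12 and Hoxd13. They were found by their Ensembl identifiers among 34624 loci and are 8 of 38 Hox genes found in that way. Each row of the tables is a locus, which holds 1 gene or a few overlapping ones with a single joint count. The 8 genes fell into 7 loci. Hoxd1, Hoxd8, Hoxd9, Hoxd12 and Hoxd13 each had a locus of their own. Hoxd3 shared its locus with 2 other identifiers, and Hoxd10 and Hoxd11 shared 1 locus with each other and with another identifier.

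The samples were 2 replicates of total RNA from whole embryos of crosses between the CBA/Ca and C57Bl/10 strains, taken at embryonic day 10.5 and not treated. The day on which the mating plug was seen counted as day 0.5. All samples belong to 1 group, so the data give levels and hold no comparison of conditions. The labels do not tell if an embryo or a pool was used for each replicate, so the spread between replicates may be technical. In whole embryos, fewer cells of a type and less RNA per cell cannot be told apart.

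Hox proteins are transcription factors that bind DNA through the homeodomain and give cells their position along the body axis. The order of the genes in a cluster follows the order in which they come on in time and along the body: genes at the 3′ end, such as Hoxd1, act early and towards the head, and genes at the 5′ end, such as Hoxd13, act late and towards the tail. HoxD genes of the 5′ part are also used in the limb and genital buds, where enhancers in the gene-poor regions on either side of the cluster control them.

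Reads summed over loci came to 18318181 in replicate 1 and 117522171 in replicate 2, and 17090 loci reached 1 RPKM in both. RPKM scales the reads of a locus by its transcript length in kilobases and by library size, as reads per 1000000. A count of 0 allows up to 0.164 CPM in replicate 1 and 0.0255 in replicate 2, where CPM is the reads of a locus per 1000000 reads over all loci. This limit, and the 95% intervals given below, cover counting error only. The minimum of 1 RPKM in both replicates was reached by 49.4% of all loci, so reaching it does little to tell the tissue. All 11 markers of neural, heart, limb, somite, blood, vessel, epithelial and liver cells reached it. Their levels differed between the libraries in blood and liver genes: the embryonic globin genes Hbb-y (1746 and 6474 RPKM) and Hba-x (1284 and 3219) were higher in replicate 2, by 1.89 and 1.33 on the log2(RPKM + 1) scale, and the fetal liver and yolk sac gene Afp (195.5 and 82.0) was higher in replicate 1. Of 7 markers of maternal decidua and uterus 4 reached it, with summed RPKM of 30.0 in replicate 1 and 34.5 in replicate 2. Most of that sum was Dcn (20.3 and 22.2). The hormone receptor genes Pgr (0.670 and 0.515) and Esr1 (0.517 and 0.244) stayed below 1 RPKM. The decidual prolactin gene Prl8a2 stood at 1.23 and 6.38 RPKM and Prl3c1 at 0.213 and 0.0209. Of 7 trophoblast and placenta markers 1 reached it, with summed RPKM of 8.32 and 5.62, and Tpbpa and Psg21 were at 0 reads. The uterus is known to express Hox genes too, and the part of such tissue in the HoxD levels was not tested.

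The members are introduced by the part of the gene that makes them a family, shown for 5 of the 8. The lines below give, 5′ to 3′, the bases that encode the recognition helix of the homeodomain, the helix that lies in the major groove of DNA. Capitals mark the bases that all 8 genes share. They come from GENCODE M21 transcripts and lie in the last exon of each gene (exon 2 of 2), on the plus strand of GRCm38, at Hoxd8 chr2:74706648-74706698, Hoxd10 chr2:74694264-74694314, Hoxd11 chr2:74684040-74684090, Hoxd12 chr2:74675966-74676016 and Hoxd13 chr2:74670053-74670103. The authors' files use build mm9, so these coordinates belong to the sequences and not to the measurements.
Hoxd8: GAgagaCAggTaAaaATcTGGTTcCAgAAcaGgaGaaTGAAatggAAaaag
Hoxd10: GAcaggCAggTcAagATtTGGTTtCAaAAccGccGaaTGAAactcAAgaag
Hoxd11: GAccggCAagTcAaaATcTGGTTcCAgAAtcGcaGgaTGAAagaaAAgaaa
Hoxd12: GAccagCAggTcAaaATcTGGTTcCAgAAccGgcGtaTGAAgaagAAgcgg
Hoxd13: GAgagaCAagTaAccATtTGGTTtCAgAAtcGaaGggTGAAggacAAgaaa

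Of the 51 bases, 25 (49.0%) were the same in all 8 genes. Over the whole homeobox of 180 bases, identity between members ranged from 50% (Hoxd3 and Hoxd13) to 71.1% (Hoxd9 and Hoxd10), with a median of 58.9% over 28 pairs. Each member was closer to the gene of the same number in another cluster, its paralogue. Identity over 17 paralogue pairs ranged from 67.2% (Hoxd13 and Hoxb13) to 93.3% (Hoxd3 and Hoxa3), with a median of 79.4%.

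Such likeness could let a short read fit 2 genes, so the transcripts were searched for stretches of 36 bases found in another gene, on either strand. Hoxd1, Hoxd8, Hoxd12 and Hoxd13 shared none with any other gene of GENCODE M21. Hoxd9 shared 14 of 2101, of which 5 were with Hoxb9. Hoxd10 shared 70 of 1781 (3.93%), all with Gm28309, which lies in its own locus. In Hoxd11, 429 of 4133 (10.4%) were shared, most of them with Gm28309. Hoxd3 shared 2547 of 4180 (60.9%), most of them with Gm28230, Hoxd4 and Hoxd3os1 of its own locus. The search length was a choice, as the sources used here give no read length.

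The joined loci hold more than the 8 names say. By transcript identifiers in GENCODE M21, the 13 transcripts of the Hoxd3 locus were 5 of Hoxd3, 3 of Hoxd4, 4 of the antisense gene Hoxd3os1 and 1 of Gm28230. Reads of Hoxd4, the next gene of the cluster, are thus part of the Hoxd3 value, and Hoxd4 was not analysed on its own here. The 5 transcripts of the other joined locus were 2 of Hoxd11, 1 of Hoxd10, 1 of Gm28309 and 1 without an entry. These 2 loci took 91.0% of the 4129 HoxD reads in replicate 1 and 89.6% of the 15719 in replicate 2. No source used here tells if counting used strand, so reads of Hoxd3 and of Hoxd3os1 cannot be told apart.

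All 7 HoxD loci reached 1 RPKM in both replicates, as did 49.4% of all loci in the tables and 23 of the 26 other Hox loci. The median of the 7 loci was 5.15 RPKM in replicate 1 and 5.28 in replicate 2, against 23.5 and 14.6 for the other Hox loci. The other Hox loci include genes of numbers that the 8 members lack, such as Hoxa5 and Hoxc6, so the sets are unlike. Genes of the same number are compared below. For the 5 HoxD loci that hold a single gene the median was 4.01 and 3.06. Both joined loci were above every single-gene locus in each replicate.

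**Figure D1:**
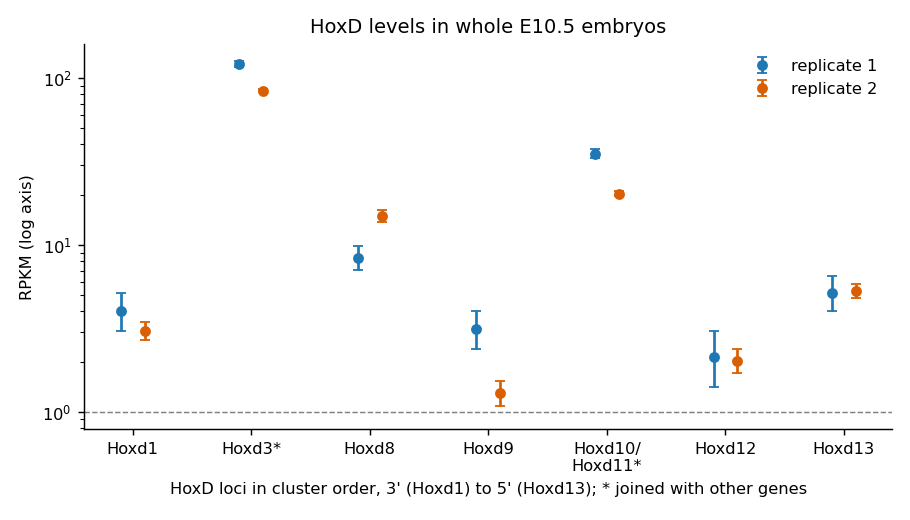
RPKM (log axis) of the 7 HoxD loci in cluster order in replicate 1 (blue) and replicate 2 (orange). Bars are 95% Poisson intervals of the reads, the dashed line is 1 RPKM and asterisks mark joined loci. The joined Hoxd3 locus lies highest in both replicates, and Hoxd9 and Hoxd12 lie lowest.

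At the 3′ end, Hoxd1, which is known for its role in sensory neurons and the early hindbrain, stood at 4.01 RPKM in replicate 1 (61 reads, 95% exact Poisson interval 3.07 to 5.15) and 3.06 in replicate 2 (264 reads, 2.70 to 3.45). The intervals overlap. The next HoxD locus, that of Hoxd3, a gene that patterns the uppermost vertebrae, stood at 120.9 RPKM (2761 reads) and 83.9 (10694 reads). It ranked 1 of 33 Hox loci and above 86.6% of the loci detected in both replicates. The difference, Hoxd1 minus Hoxd3, was -4.50 ± 0.15 on the log2(RPKM + 1) scale (SD, n = 2). That was beyond the replicate spread, which was set at 2 SD of the log2 ratio between replicates over loci of like level, here 1.20.

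In the middle of the cluster, Hoxd8, which acts with its paralogues in the trunk, stood at 8.37 RPKM (150 reads, 7.09 to 9.83) and 14.9 (651 reads, 13.8 to 16.1). It was the highest of the single-gene HoxD loci in both replicates, and its own intervals do not overlap. The next gene, Hoxd9, known for a role in the lumbar spine and hindlimb, stood at 3.13 RPKM (60 reads, 2.39 to 4.03) and 1.29 (140 reads, 1.08 to 1.52). Its intervals do not overlap either, and its order was the opposite, with replicate 1 higher. Hoxd8 exceeded Hoxd9 by 1.99 ± 1.14 on the log2 scale, beyond the limit of 1.09.

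Among the genes of the 5′ part, the joined locus of Hoxd10 and Hoxd11 was high, at 35.2 RPKM (997 reads) and 20.2 (3398 reads). Both genes are known for roles in the sacral spine and motor neurons and in the middle segment of the limb. Hoxd12, a limb gene, stood at 2.12 RPKM (28 reads, 1.41 to 3.06) and 2.02 (152 reads, 1.71 to 2.37). Hoxd13, which patterns the digits and the genital bud, stood at 5.15 RPKM (72 reads, 4.03 to 6.48) and 5.28 (420 reads, 4.79 to 5.81). For Hoxd12 and Hoxd13 the intervals of the replicates overlap. Hoxd13, the last gene of the cluster, was higher than Hoxd12 in both replicates, and the difference, Hoxd12 minus Hoxd13, of -1.02 ± 0.054 stayed within the limit of 1.12.

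Along the chromosome the levels did not fall or rise in one direction. Of 6 pairs of adjacent loci, 5 differed beyond the replicate spread, and in the 3′ to 5′ direction 3 of these were falls and 2 were rises. By the same rule 68.2% of all pairs of loci with a mean of 1 RPKM or more were beyond the spread, and 61% of all pairs of Hox loci, so such a call is common. The difference between Hoxd9 and the locus of Hoxd10 and Hoxd11 was -3.17 ± 0.060, and that locus was higher than Hoxd12 by 3.18 ± 0.51. Each of these 5 pairs includes a joined locus, except Hoxd8 with Hoxd9.

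Ordered by mean RPKM, the loci were Hoxd3 (102.4), Hoxd10 with Hoxd11 (27.7), Hoxd8 (11.6), Hoxd13 (5.22), Hoxd1 (3.53), Hoxd9 (2.21) and Hoxd12 (2.07). The step from Hoxd3 to Hoxd10 with Hoxd11 was 1.88 ± 0.18 on the log2 scale, beyond its limit of 1.08. The step from there to Hoxd8 was 1.18 ± 1.08 against 1.09, and in replicate 2 alone it was 0.42, within the limit. It was also within the limit with no filter on low loci (1.25) and with the length of replicate 2 used for both libraries (0.58 against 1.04). None of the other 4 steps was beyond the spread: Hoxd8 to Hoxd13 (0.97), Hoxd13 to Hoxd1 (0.46), Hoxd1 to Hoxd9 (0.55) and Hoxd9 to Hoxd12 (0.0031). The first of these was beyond it in replicate 2 alone, at 1.34, and with the length of replicate 2, at 1.48. The last changed sign between replicates. Over all 21 pairs of HoxD loci 14 differed beyond the spread, a share near that of all pairs of loci, and 3 of the 10 pairs of single-gene loci did. Those 3 were Hoxd8 against Hoxd1, Hoxd9 and Hoxd12. The call against Hoxd1 (1.44 against a limit of 1.20) was lost in replicate 1 alone (0.903), with the length of replicate 1 (0.826 against 0.988) and with a pseudocount of 0.1 (1.65 against 1.69).

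The 2 libraries did not give the same picture of Hoxd8, and the reads show where the values part. Hoxd8 was higher in replicate 2 by 0.76 on the log2(RPKM + 1) scale. Its CPM went the other way, from 8.19 CPM (6.93 to 9.61) to 5.54 (5.12 to 5.98). The ratio of CPM, replicate 2 over replicate 1, was 0.676 (exact 95% interval 0.566 to 0.813). Reads and RPKM together give the transcript length that was used. For Hoxd8 it came to 1307 bases in the first library and 561 in the other, and their ratio was 0.429. GENCODE M21 lists 3 Hoxd8 transcripts of 2634, 1758 and 557 bases, and the shortest is within 1% of the length in replicate 2. With the geometric mean of the 2 lengths for both libraries, Hoxd8 stood at 12.8 and 9.76 RPKM, so the direction turned. Why the length differed was not tested.

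Hoxd8 had the lowest such ratio of the 33 Hox loci. The next lowest was the joined locus of Hoxb7 and Hoxb8 at 0.855. Among 7878 loci with several transcripts and over 200 reads in replicate 1, 0.0889% had a ratio as low, although Hoxd8 itself has fewer reads. The lengths of the other HoxD loci were alike in both libraries. They were 1109 bases for Hoxd1, 1396 for Hoxd9, 965 for Hoxd12 and 1020 for Hoxd13, and for the joined loci the ratios were 0.982 and 1.04. GENCODE M21 gives longer transcripts for the same identifiers: 1862 bases for Hoxd1, 2136 for Hoxd9, 2534 for Hoxd12 and 2483 for Hoxd13. The lengths behind the deposited values of these 4 genes were thus shorter than those of M21, and the reason was not tested.

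**Figure D2:**
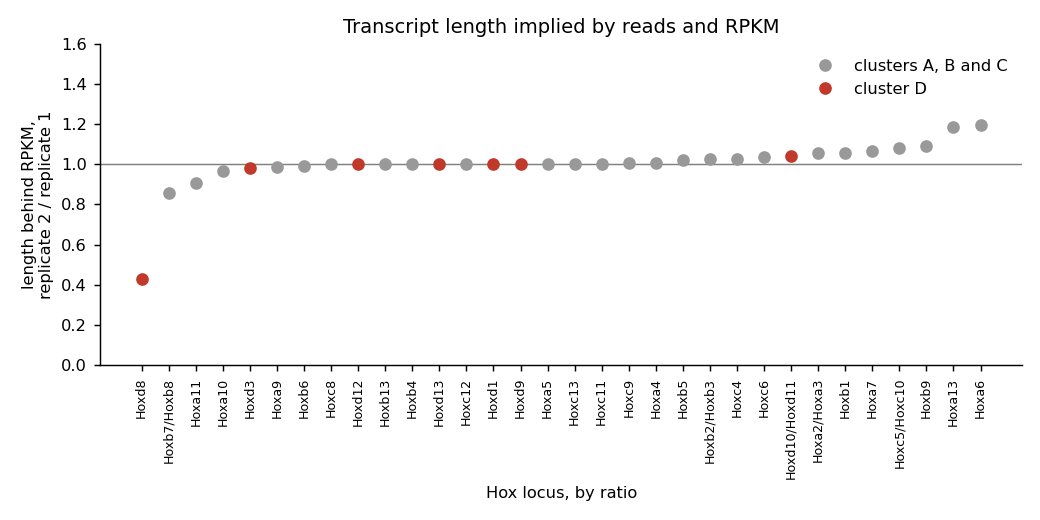
Ratio of the transcript length implied by reads and RPKM in replicate 2 to that in replicate 1, for 32 of the 33 Hox loci in rising order. Points at 1 had the same length in both libraries. Hoxd8 (red, far left) lies at 0.429, while the other 6 HoxD loci lie between 0.982 and 1.04.

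The other loci give a scale for how far HoxD values moved between the libraries. Replicate 2 had the higher RPKM at 2 of 7 HoxD loci, Hoxd8 and Hoxd13, against 20.9% of the 18335 loci with a mean of 1 RPKM or more. By CPM it was higher at none of the 7, against 12.1% of those loci. The median log2 ratio of the 7 loci was -0.31 by RPKM and -0.49 by CPM, against -0.38 and -0.50 for all these loci. Relative to that shift, Hoxd9 and the locus of Hoxd10 and Hoxd11 were low by RPKM (-0.85 and -0.77). Hoxd8, Hoxd12 and Hoxd13 were high (0.76, -0.045 and 0.032), but Hoxd8 was near the shift by CPM (-0.49). The ratio of CPM was lowest of the 7 for Hoxd9, at 0.364 (0.267 to 0.501), and highest for Hoxd13, at 0.909 (0.707 to 1.18). The intervals of these extremes do not overlap, but they cover counting error only. The loci were picked as the lowest and highest of 7, which favours such a gap. For Hoxd10 with Hoxd11 the ratio of CPM was 0.531 (0.495 to 0.571). The globin genes Hbb-y and Hba-x lay above the middle 95% of loci by RPKM (-1.46 to 1.12), and their part in the HoxD shifts was not tested. These ratios compare 2 libraries, and with 1 group no value tells embryo from library. All 7 HoxD loci lay within the middle 95% of loci on both scales.

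**Figure D3:**
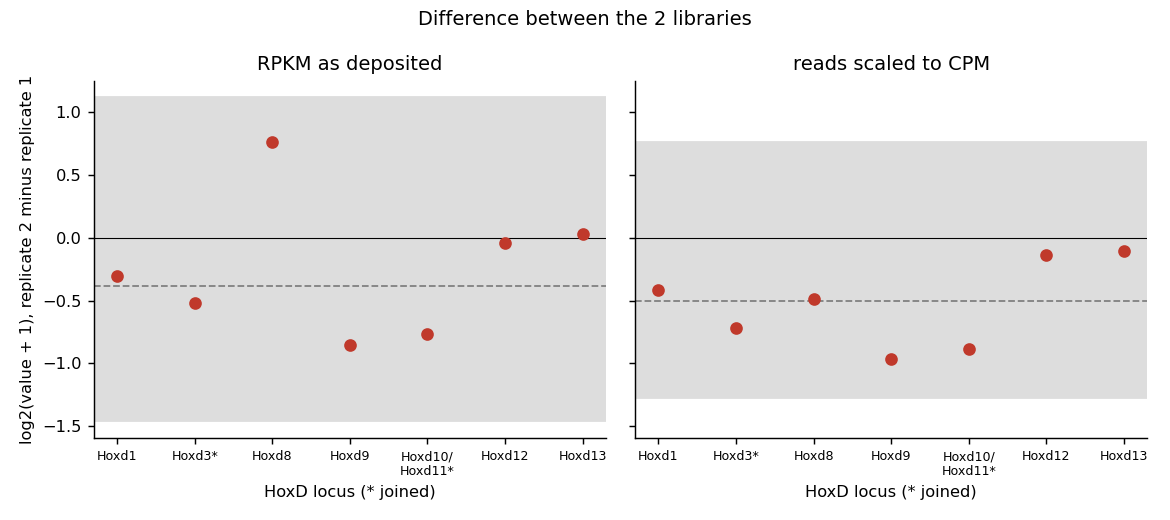
Difference between replicate 2 and replicate 1 on the log2(value + 1) scale for each HoxD locus, from RPKM as deposited (left) and from reads scaled to CPM (right). The grey band holds the middle 95% of 18335 loci and the dashed line is their median. Hoxd8 is at 0.76 on the left and at -0.49 on the right.

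Genes of the same number in different clusters are paralogues, with like homeodomains and partly shared roles. Each member was set beside each gene of the same number in clusters A, B and C, in 17 pairs, and 8 differed beyond the replicate spread, against the 68.2% of all pairs of loci given above. In 5 of these the HoxD gene was the lower one, and in 3 it was the higher one. In only 8 of the 17 pairs did both genes have a locus of their own, and 5 of those 8 were beyond the spread.

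In paralogue group 9, Hoxd9 was the lowest of 4 genes in both replicates. Its difference from Hoxa9 (45.5 and 35.5 RPKM, a joined locus) was -3.74 ± 0.36 on the log2 scale. From Hoxb9 (32.2 and 20.1) it was -3.10 ± 0.14, and from Hoxc9 (9.28 and 10.5) it was -1.82 ± 0.72. All 3 differences were beyond the spread and stayed so under the alternatives run for each pair. Hoxd9 gave 3.48% of the RPKM of its group in replicate 1 and 1.91% in replicate 2.

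In group 13, the posterior end, the HoxD gene was among the higher ones. Hoxd13 exceeded Hoxb13 (0.664 and 0.559 RPKM, 9 and 43 reads) by 1.95 ± 0.089, beyond the limit of 1.12. It exceeded Hoxc13 (0.408 and 0.299, 6 and 25 reads) by 2.20 ± 0.10, beyond the same limit. Hoxb13 and Hoxc13 lie below the 1 RPKM minimum of the loci that gave the spread. The limit is thus that of loci at the level of Hoxd13. Against Hoxa13 (5.95 and 3.92), the partner of Hoxd13 in digit formation, the difference was 0.089 ± 0.38 and changed sign between replicates. Hoxd13 and Hoxa13 were thus the 2 group 13 genes over 1 RPKM. In group 12, Hoxd12 was above Hoxc12 (0.466 and 0.601, 6 and 44 reads) in both replicates, by 1.00 ± 0.12 against a limit of 1.09. In replicate 1 alone the difference was just past that limit.

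For groups 10 and 11 the comparison rests on the joined locus. It was close to Hoxa10 (40.0 and 29.6) and to the joined locus of Hoxc5 and Hoxc10 (40.7 and 23.9), with differences of -0.35 ± 0.24 and -0.22 ± 0.015. It was also within the spread of Hoxa11 (22.05 and 18.8, a joined locus) at 0.38 ± 0.39. It exceeded Hoxc11 (2.16 and 1.57) by 3.28 ± 0.33, beyond the spread. How much of this level belongs to Hoxd10 and how much to Hoxd11 cannot be told apart.

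At the other end, Hoxd1 was higher than Hoxb1 (2.88 and 1.23), a gene of the hindbrain, by 0.62 ± 0.35, within the limit of 1.20. The Hoxd3 locus was above the joined loci of Hoxa3 (88.4 and 55.2) and Hoxb3 (86.5 and 52.3) in both replicates, by 0.52 ± 0.10 and 0.58 ± 0.14, within the spread. Hoxd8 was lower than Hoxc8 (30.9 and 21.4), with a difference of -1.13 ± 0.90 against a limit of 1.09. Its difference from the locus of Hoxb7 and Hoxb8 (21.01 and 15.2) was -0.63 ± 0.85, within the limit. The call for Hoxc8 was lost in replicate 2 alone (-0.49), with a pseudocount of 0.1 (-1.20 against 1.24), with no filter on low loci (limit 1.25) and with the length of replicate 2 (-0.56). The difference from Hoxb8 passed the limit in replicate 1 alone (-1.23) and with the length of replicate 1 (-1.04 against 0.917).

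**Figure D4:**
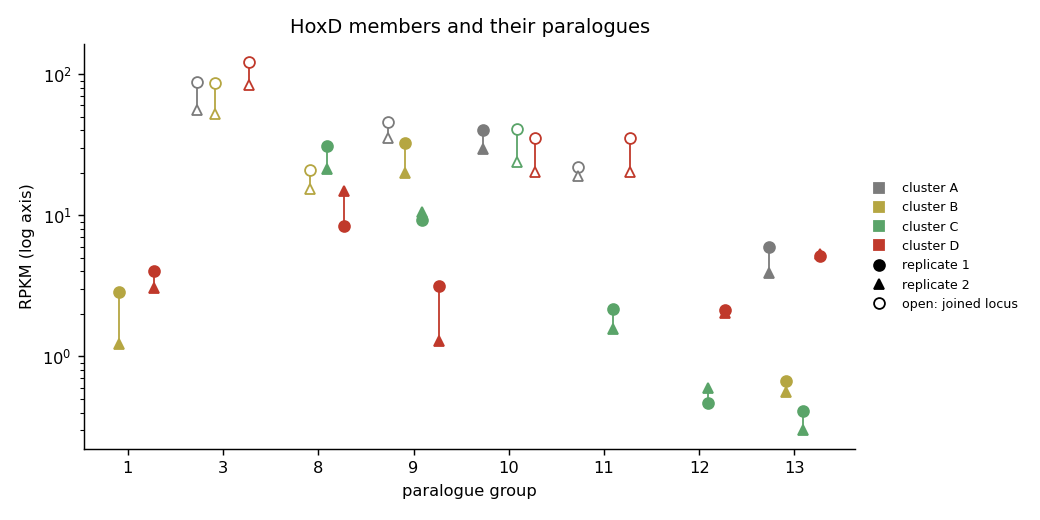
RPKM (log axis) of Hox genes in the paralogue groups of the HoxD members, 1 gene left out, by cluster (colour), in replicate 1 (circles) and replicate 2 (triangles). Open symbols are joined loci, whose value is drawn for each gene they hold. In group 9 the HoxD gene (red) lies lowest, and in group 13 it lies with Hoxa13 above the B and C genes.

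Summed over its 7 loci, cluster D gave 20.7% of the RPKM of all 33 Hox loci in replicate 1 and 22.9% in replicate 2. With joined loci left out on both sides the mean share fell to 9.44%, so most of it rests on 2 loci. The Hoxd3 locus alone gave 67.6% and 64.2% of the HoxD sum, and Hoxd10 with Hoxd11 gave 19.7% and 15.5%. Hoxd8 gave 4.68% and 11.4%, Hoxd13 2.88% and 4.04%, Hoxd1 2.24% and 2.34%, Hoxd9 1.75% and 0.984%, and Hoxd12 1.18% and 1.55%. The difference in the share of Hoxd8 moved with the length behind its RPKM: with 1 length per locus it gave 6.96% and 7.79%, and of the HoxD reads 3.63% and 4.14%.

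Of the 26 Hox loci outside the cluster, the nearest in level over both replicates was Hoxb1 for Hoxd9, at a distance of 0.10 on the log2(RPKM + 1) scale. It was Hoxb9 for Hoxd10 with Hoxd11 (0.12), Hoxc11 for Hoxd12 (0.23), Hoxc9 for Hoxd8 (0.49) and the joined locus of Hoxa2 and Hoxa3 for Hoxd3 (0.74). Hoxa13 was the nearest to both Hoxd13 (0.40) and Hoxd1 (0.55). With 1 length per locus for both libraries the nearest to Hoxd8 was Hoxa6 (0.20), ahead of Hoxc9 (0.44), and the nearest to each of the other 6 loci was as before. With 2 replicates of 1 group this likeness is one of level only.

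The starts of the 5 single-gene loci are shown because their levels can be given to 1 gene each. The lines give the 130 bases before the RefSeq start of transcription, 5′ to 3′, on the plus strand of GRCm38.p6, at Hoxd1 chr2:74762850-74762979, Hoxd8 chr2:74704485-74704614, Hoxd9 chr2:74697633-74697762, Hoxd12 chr2:74674883-74675012 and Hoxd13 chr2:74668095-74668224. Capitals mark 3 motifs searched on both strands: TATAAA (the TATA box), CCAAT (the CCAAT box) and CACGTG (a palindromic E-box).
Hoxd1: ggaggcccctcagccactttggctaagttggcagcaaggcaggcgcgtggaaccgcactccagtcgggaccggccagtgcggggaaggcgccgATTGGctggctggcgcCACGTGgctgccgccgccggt
Hoxd8: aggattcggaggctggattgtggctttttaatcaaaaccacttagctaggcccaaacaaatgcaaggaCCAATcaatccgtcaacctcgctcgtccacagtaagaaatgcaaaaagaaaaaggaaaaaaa
Hoxd9: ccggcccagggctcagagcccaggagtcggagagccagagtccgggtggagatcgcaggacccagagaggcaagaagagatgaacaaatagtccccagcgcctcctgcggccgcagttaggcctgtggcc
Hoxd12: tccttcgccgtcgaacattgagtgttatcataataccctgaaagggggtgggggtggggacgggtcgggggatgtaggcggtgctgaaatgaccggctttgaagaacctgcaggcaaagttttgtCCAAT
Hoxd13: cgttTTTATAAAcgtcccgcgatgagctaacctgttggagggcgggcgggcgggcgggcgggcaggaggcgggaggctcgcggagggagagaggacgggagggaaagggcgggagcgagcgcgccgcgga

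All 8 members had an entry in that table, Hoxd11 with 2 starts, and the 250 bases before each start were searched. TATAAA was found for Hoxd13 alone, in 2 overlapping matches that begin 126 and 124 bases before the start, and in 12.4% of 32851 promoters of the same length. CCAAT was found for 6 of the 8 members and in 33.8% of promoters, and CACGTG for 4 of the 8 and in 6.02%. The window of Hoxd13 was rich in G and C (74.4%) and held 31 CpG sites, and that of Hoxd1 held 24 (71.6%). The windows of Hoxd12 and Hoxd9 held 10 (55.6%) and 13 (65.2%), and that of Hoxd8 held 6 (44.4%). The median over all promoters was 52.4% G and C. These matches describe the letters in the windows only.

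The flanks of the cluster differed from the single HoxD genes in level. From a list of 11 genes of the neighbourhood, which includes Hoxd3os1 in the Hoxd3 locus, 10 reached 1 RPKM in both replicates. Evx2, the homeobox gene beside Hoxd13 that shares limb enhancers with it, was the exception at 0.819 and 0.755 RPKM (21 and 110 reads). Beyond it, Lnp, an endoplasmic reticulum protein gene listed as Lnpk, stood at 101 and 135. On the other side, Mtx2, which encodes a protein of the outer mitochondrial membrane, stood at 150 and 151. The antisense transcript Haglr, which lies between Hoxd4 and Hoxd1, stood at 12.97 and 8.75 RPKM, above Hoxd1 in both replicates. Atf2, Atp5g3, Chn1, Hnrnpa3, Nfe2l2 and Agps ranged from 31.0 to 142 RPKM.

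**Figure D5:**
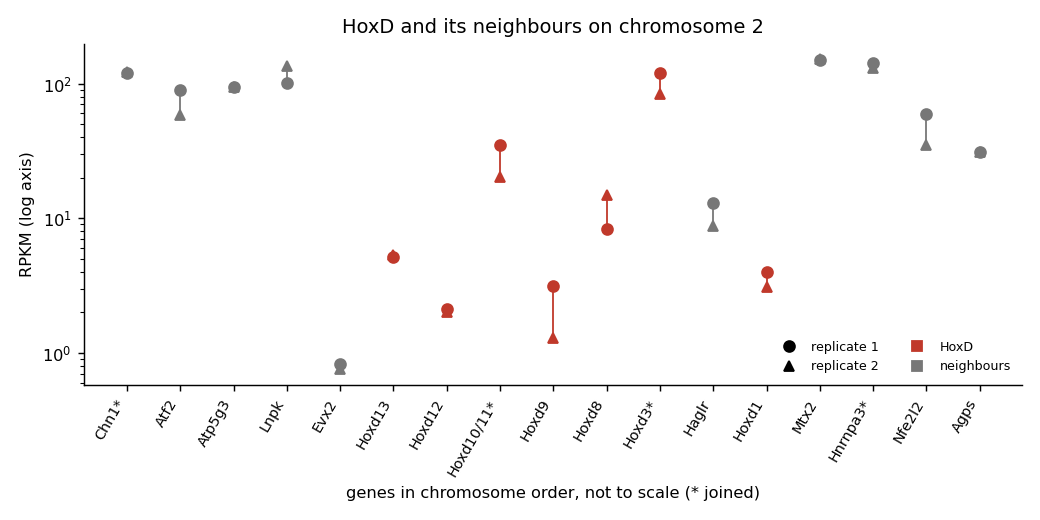
RPKM (log axis) of HoxD loci (red) and neighbouring genes (grey) in their order on chromosome 2, not to scale, in replicate 1 (circles) and replicate 2 (triangles). Asterisks mark joined loci. Evx2, at 0.819 and 0.755, lies below every HoxD locus, and the flanking genes outside Evx2 and Haglr lie above all single-gene HoxD loci.

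Genes that act with or on Hox genes were given as lists. Hox proteins bind DNA together with TALE homeodomain cofactors, and all 9 Pbx, Meis and Pknox genes of the list reached 1 RPKM in both replicates. Their median was 84.4 and 74.3 RPKM, with Meis1 (217 and 251, joined) highest by mean and Pknox2 (8.98 and 4.90) lowest. Of 14 inputs to Hox transcription 10 reached it. Gli3, a hedgehog effector that restrains 5′ HoxD genes in the limb, was highest (69.3 and 44.5). Cdx1, a regulator of trunk Hox genes, was lowest (0.0823 and 0.0724, with 1 and 5 reads). Cdx2 (0.358 and 0.199), Cdx4 (1.01 and 0.114) and Fgf4 (0.501 and 0.476) also missed the minimum.

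All 16 Polycomb and Trithorax genes, which keep Hox genes silent or active, reached 1 RPKM, with a median of 60.8 and 47.8. Ezh2 (691 and 745, joined), the methyltransferase of Polycomb, was highest. All 13 limb and genital bud genes did too, with a median of 20.4 and 12.9, Epha7 (109 and 94.7) highest and Tbx4 (6.48 and 4.45) lowest by mean. Of 8 posterior body and tail bud genes 6 did, with a median of 3.42 and 1.84, Gdf11 (31.4 and 26.4) highest and Cdx2 lowest.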

How the data were processed

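Total RNA of whole embryos was sequenced with Illumina libraries in 2 replicates of 1 group. TopHat and build mm9 are named in the submitters' processing notes, without versions. The read counter, its filters and the use of strand were not given in the sources used here. Per the file headers, the deposited values are RPKM and raw counts (whole numbers) for each locus.

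Rows with the same gene identifiers were summed (34676 rows to 34624 loci), and symbols were matched for 86.6% of 37681 identifiers. RPKM was the unit planned for and stayed the main one, and the counts served for intervals, CPM and lengths. No count model was run, as there is 1 group. Lengths are reads divided by RPKM and by the library size (13.7 and 77.9 times 1000000 reads) at which the largest share (34.9%) of 4057 single-transcript loci of over 50 reads met their GENCODE M21 length.

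A pair of loci was called beyond the replicate spread when log2(RPKM + 1) differed the same way in both replicates by a mean over 2 SD of the replicate log2 ratio. The SD came from 20 equal groups of loci of 1 RPKM or more by level, and the larger of the loci's SDs was taken. The rule was tested on simulated data, on loci of higher level only and without counting error. That test did not cover levels as low as those of Hoxd1, Hoxd9, Hoxd12 and Hoxd13. With 2 replicates no exact test can pass 0.05, and none is given.

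Named genes were the 8 members, Hox genes of their paralogue groups, the nearest Hox locus to each, the neighbourhood list, and the highest and lowest of each context list. Other listed genes below the minimum, Mir10b and Prl markers were named after their values were seen. The members and lists were chosen with earlier results of these data known. Python 3.11.15, numpy 2.4.6, pandas 2.3.3, scipy 1.17.1 and matplotlib 3.10.9 were used. Alternatives covered the minimum, pseudocount, filter, scaling, lengths, rows, joined loci and each replicate left out. Some items are not reported here, though counts over all pairs and loci include them.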

Additional observations from a re-analysis of the deposited data

How the results depend on the processing

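No paired analysis was possible because the series has 1 group. Of 6 neighbouring steps in level, 2 were beyond the spread; with no filter on low loci 1 was, and with joined loci left out, which leaves 4 steps, 0 were. Of the paralogue pairs 8 were beyond the spread, and 5 with joined loci left out, since fewer pairs exist. With 1 replicate left out, the steps beyond the spread were 2 in either case, but not the same 2. Without replicate 1, the step from Hoxd10 with Hoxd11 to Hoxd8 was lost and that from Hoxd8 to Hoxd13 was gained. With either replicate left out, the paralogue pairs were 7 to 10, the detected loci 7 and the HoxD share 20.7% to 22.9%. That share, 21.8% on average, was 25.5% by CPM, which does not divide by length, and 9.44% without joined loci. Detected loci ranged from 5 without joined loci to 7, with 6 at a minimum of 2 RPKM.

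With the replicates rescaled to the same median of loci of 1 RPKM or more, a shift of 0.46 on the log2 scale, the median HoxD ratio turned from -0.31 to 0.056. Under that scaling Hoxd1 turned to 0.056 and Hoxd12 to 0.28. By CPM, Hoxd8 turned to -0.49 and Hoxd13 to -0.11. With CPM divided by 1 length per locus, they turned to -0.50 and -0.11. Hoxd13 had the same length in both libraries, so its turn went with the library size and not with length. Reads summed over loci were 6.42 times as many in replicate 2, and the library size behind RPKM was 5.68 times as large. The alternatives on length (that of replicate 1, that of replicate 2, or 1 length for the log2 ratio, the Hoxd8 share and the nearest locus) were chosen after seeing the data. Those for pairs of loci and for the log2 ratio divided CPM by length, and so did not use the library size behind RPKM. Depth limits Hoxd12 most, with 28 reads in replicate 1. No alternative without 1 replicate was run for the ratio, as it needs both.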

Other observations

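The cluster also holds a miRNA gene, Mir10b, chosen here after its values were seen. In GRCm38 it lies (chr2:74726070-74726137) between the RefSeq start of Hoxd3 and the Hoxd3 homeobox (chr2:74746483-74746533). Whether reads of Mir10b also count in the joined Hoxd3 locus was not tested. The Mir10b hairpin of 68 bases had 6 reads in replicate 1 and 28 in replicate 2, or 6.44 and 5.28 RPKM. The RPKM of replicate 2 was the same as that of Hoxd13 to 3 digits, from 28 reads over 68 bases and 420 reads over 1020 bases. So few reads over so short a gene give a wide counting error. The labels name a standard library protocol, and whether these reads measure the mature miRNA was not tested. The mature forms in RefSeq lie on the plus strand of GRCm38.p6 at chr2:74726074-74726096 and chr2:74726114-74726135, and capitals mark the seed.
miR-10b-5p: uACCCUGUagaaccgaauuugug
miR-10b-3p: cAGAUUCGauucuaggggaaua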
